A study of Mus musculus with 12 samples.

Results

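Carbonyl reductases and aldo-keto reductases are NADPH- or NADH-dependent enzymes that turn the carbonyl group of an aldehyde or ketone into an alcohol. The 10 genes followed here are the carbonyl reductases Cbr1, Cbr3 and Cbr4 and the aldo-keto reductases Akr1a1, Akr1b3, Akr1b7, Akr1b8, Akr1c13, Akr1c19 and Akr7a5. A gene was read from an array row whose annotation gives its symbol and no other, and from the brightest such row where there were several. The 10 genes were chosen by enzyme family, with their ChREBP minus GFP differences on these arrays already known. Of the 10, 8 have such a row and each has only 1, among 19938 genes measured in this way. Akr1b3, aldose reductase, and Akr1b7, a reductase of lipid aldehydes, have no row listed in the annotation and were not analysed here.

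Gene expression was measured in the whole liver of male C57BL/6J mice with Affymetrix mouse gene arrays, 1 array per mouse. Mice of the ChREBP group (n = 6) had been given an adenovirus that overexpresses ChREBP, the glucose-responsive transcription factor encoded by Mlxipl, and mice of the GFP group (n = 6) an adenovirus that overexpresses green fluorescent protein. Both viruses were injected into the tail vein, the labels give the age as 8 weeks, and livers were taken 3 weeks after injection from fed mice. Every mouse therefore carried an adenovirus, and the series holds no uninjected liver. No source used here gives the promoter of either virus, nor the species or isoform from which the ChREBP virus was made. For its GFP and Phf2 viruses the study left out mice in which the virus did not act, and whether this was done for ChREBP is not stated. The labels call the 6 arrays of a group biological replicates. Array values are on a log2 scale, in which a step of 1 is a doubling, and they ran between 2.43 and 13.7 with a median of 6.02. Levels are compared between groups for 1 gene at a time, never between genes, because each array row has its own brightness.

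Reduction of a carbonyl group removes reactive aldehydes formed when lipids or sugars are oxidised, and it also serves steroid, prostaglandin, retinoid and drug metabolism, so that liver carries many of these enzymes. Carbonyl reductases belong to the short-chain dehydrogenase family, whereas aldo-keto reductases share a barrel-shaped fold and form numbered subfamilies, of which the mouse Akr1c genes lie side by side on 1 chromosome. Several members of both families are known targets of Nrf2, the transcription factor of the oxidative stress response, which binds the antioxidant response element. ChREBP itself binds paired E-boxes and drives genes of glycolysis and lipid synthesis.

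Cbr1 and Cbr3 are neighbours on chromosome 16, counting protein-coding genes without predicted genes named Gm. The RefSeq sequence before each start is printed because these were the measured members with the largest differences and they are neighbours. Each stretch covers the 250 bases upstream of the annotated start in mouse build GRCm38.p6, plus strand, written 5′ to 3′, with every GC box (GGGCGG) in capitals.
Cbr3, chr16:93682969-93683218: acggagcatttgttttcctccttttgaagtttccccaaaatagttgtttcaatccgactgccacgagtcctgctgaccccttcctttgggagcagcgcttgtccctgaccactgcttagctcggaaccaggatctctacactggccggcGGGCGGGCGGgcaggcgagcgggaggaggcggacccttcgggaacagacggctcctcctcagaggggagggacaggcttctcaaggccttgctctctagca
Cbr1, chr16:93607587-93607836: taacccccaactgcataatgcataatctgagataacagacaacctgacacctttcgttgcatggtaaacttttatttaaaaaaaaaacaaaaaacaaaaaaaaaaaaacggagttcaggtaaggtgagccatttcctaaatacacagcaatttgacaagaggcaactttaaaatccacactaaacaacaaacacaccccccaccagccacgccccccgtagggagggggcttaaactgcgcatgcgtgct
The Cbr3 stretch was 59.6% G or C and held 2 GC boxes that overlap each other, while the Cbr1 stretch was 41.6% G or C and held none. GC boxes were counted after the sequences had been seen. They occur on either strand in 35.7% of the 32851 RefSeq mouse windows that run from 250 bases before to 50 bases after a start, and in 3 of the 9 members with a window, Cbr3, Akr1b8 and Akr7a5. Akr1b3 has no window in the table.

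The core of the antioxidant response element (TGACNNNGC, either strand) was present in 12.4% of all windows and in 1 of the 9 members, Akr1c19. The site is shown because it was the only match among the members. It lies 8 to 16 bases after the start that the RefSeq window uses, which is downstream of the first base annotated for the gene, and the core stands in capitals in the 25 bases printed from the minus strand of the same build.
Akr1c19, chr13:4233739-4233763: cactcttcTGACTAAGCaagttctg
The E-box (CACGTG) was found in 7.15% of all windows and in 0 of the 9 members. These matches describe letters in a short window and say nothing about binding, and elements farther from the start were not searched.

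Mlxipl was read first, as a check of the labels. Its log2 level had a lowest value of 10.74 and a highest of 10.96 in ChREBP livers, against 9.07 and 9.61 in GFP livers. All 6 ChREBP arrays lay above all 6 GFP arrays. The means were 10.89 ± 0.08 in ChREBP livers and 9.32 ± 0.23 in GFP livers (SD, n = 6 each), a difference of 1.57 or 2.98-fold (limma, Benjamini-Hochberg adjusted p = 2.86e-08; exact two-sided permutation p = 0.00216, the smallest that 924 assignments allow). Over all array rows, arrays correlated at 0.9787 to 0.9946 within a group and at 0.9715 to 0.9865 between groups, so these ranges overlapped.

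Among the 8 measured members, 3 were higher in ChREBP livers (Cbr3, Cbr1 and Akr1b8), 3 were lower (Akr7a5, Akr1c19 and Akr1c13) and 2 did not pass the test (Cbr4 and Akr1a1). Of all 19938 genes, 27.0% passed, 13.3% higher and 13.7% lower. The median difference was 0.04 over the 8 members and -0.04 over all genes. The members were proposed with results of this comparison known, so these counts describe them and carry no weight as a test of the family. Groups of arrays did not overlap for 3 members, all of them higher, where 15.2% of all genes had groups apart, 8.33% higher and 6.83% lower. Whole liver was measured, so a lower level of a gene can come from less RNA per cell or from fewer cells that carry it, and these cannot be told apart.

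**Figure D1:**
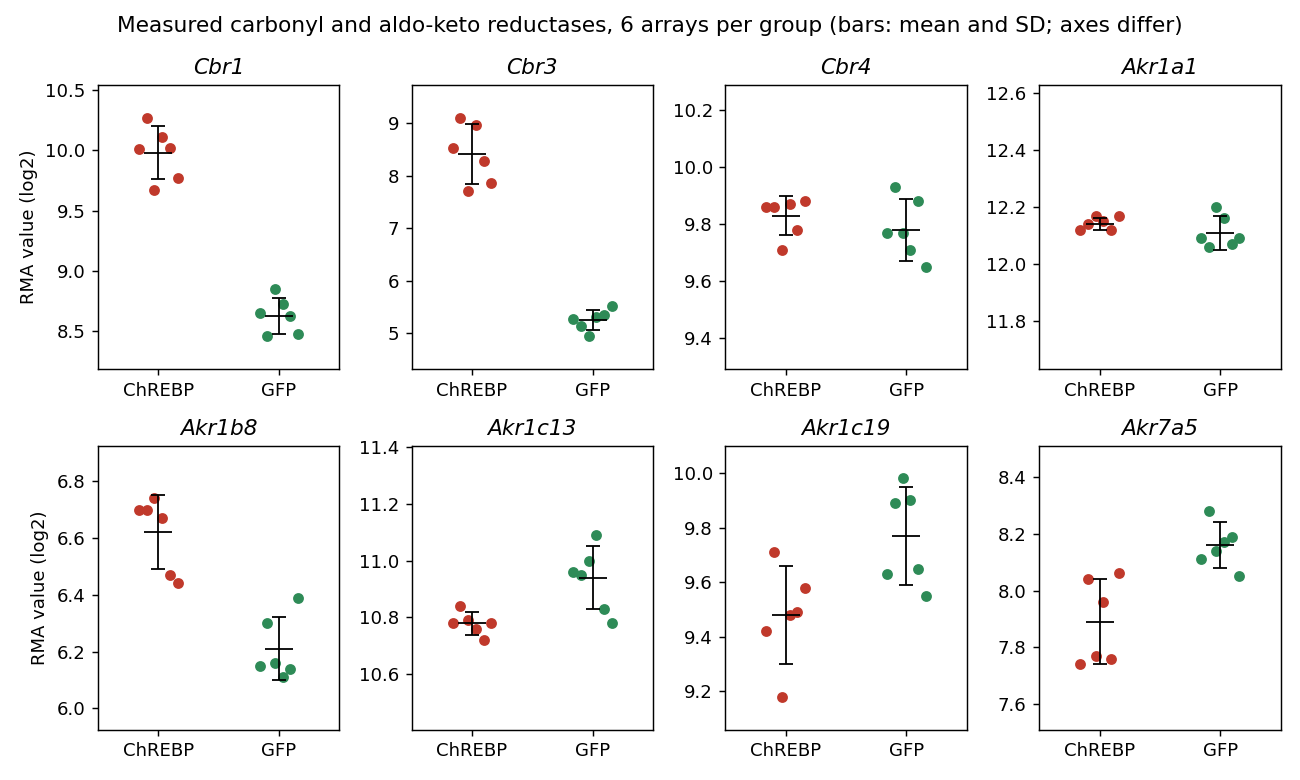
Log2 array level (y axes, one panel per gene) of the 8 measured carbonyl and aldo-keto reductases in the 6 ChREBP livers and the 6 GFP livers, 1 point per array with the group mean and SD. The ChREBP points of Cbr3, Cbr1 and Akr1b8 lie wholly above the GFP points, whereas the groups overlap for the other 5 genes.

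Cbr3, the closest relative of Cbr1 and itself a carbonyl reductase of quinones and drugs, showed the largest difference. Its lowest, median and highest log2 levels were 7.71, 8.41 and 9.11 in ChREBP livers, against 4.94, 5.28 and 5.51 in GFP livers. Every ChREBP array lay at least 2.20 above the brightest GFP array. The means were 8.42 ± 0.57 and 5.25 ± 0.19 (ChREBP and GFP livers, SD, n = 6 each), a difference of 3.16 (SE 0.21, 95% interval 2.71 to 3.62) or 8.96-fold (limma, adjusted p = 1.24e-07). This placed Cbr3 18th of 19938 genes by the size of its difference. The GFP level is dim on this scale and detection was not tested, so the fold, and with it the excess over Cbr1, may be a lower bound. ChREBP arrays were also more spread than GFP arrays, with arrays 2 and 4 highest at 9.11 and 8.97 and arrays 3 and 6 lowest at 7.71 and 7.87.

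Cbr1, the main cytosolic carbonyl reductase of prostaglandins, quinones and anthracyclines, rose less. Its lowest, median and highest log2 levels were 9.67, 10.02 and 10.27 in ChREBP livers, against 8.46, 8.64 and 8.85 in GFP livers. The groups were separated by 0.82. The difference was 1.34 (SE 0.10, 95% interval 1.13 to 1.56) or 2.54-fold, between 9.98 ± 0.22 in ChREBP livers and 8.63 ± 0.15 in GFP livers (limma, adjusted p = 3.19e-07). ChREBP arrays 2 and 4 again carried the highest values, 10.27 and 10.11, and arrays 3 and 6 the lowest, 9.67 and 9.77.

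Whether the neighbours moved by unequal amounts was read within each array, as the log2 level of Cbr3 minus that of Cbr1. This quantity was -1.56 ± 0.36 in ChREBP livers and -3.38 ± 0.31 in GFP livers (SD, n = 6 each), ranging between -1.95 and -1.14 in ChREBP livers and between -3.91 and -2.96 in GFP livers. Cbr3 thus gained 1.82 more than Cbr1 (exact two-sided permutation p = 0.00216, the smallest possible, and 0.00433 after adjustment over the 2 pairs compared). Members were chosen with their differences known, so this p describes the pair and is no independent support. The 2 genes are similar in sequence, and signal shared between their probes would move one with the other, which was not tested.

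The genes on either side of the pair were read as well. Gene orders here and below take protein-coding genes only and leave out predicted genes whose symbols begin with Gm. In this order, Runx1, Setd4, Cbr1, Cbr3, Dop1b and Morc3 follow each other on chromosome 16. Setd4 differed by -0.07 (adjusted p = 0.313) and Dop1b by -0.00 (adjusted p = 0.986), so both nearest genes in this order missed the threshold. Runx1, 1 gene farther on the one side, was higher by 0.88 (adjusted p = 1.31e-05), and Morc3 on the other side by 0.75 (adjusted p = 0.000459, all limma).

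Akr1b8, an aldose reductase-like enzyme of lipid aldehydes and retinal, was the third gene with a higher level. Its lowest, median and highest log2 levels were 6.44, 6.68 and 6.74 in ChREBP livers, against 6.11, 6.16 and 6.39 in GFP livers. The groups did not overlap, but the gap between them was only 0.05, between ChREBP 6 at 6.44 and GFP 6 at 6.39. The difference was 0.41 (SE 0.07, 95% interval 0.27 to 0.56) or 1.33-fold (6.62 ± 0.13 in ChREBP livers and 6.21 ± 0.11 in GFP livers, limma, adjusted p = 0.000428). Its order among ChREBP arrays differed from that of Cbr1 and Cbr3, with array 3 highest instead of lowest.

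Akr1b8 lies in a group of aldose reductase genes on chromosome 6, where Slc35b4, Akr1b3, Akr1b8, Akr1b10, Akr1b7 and Bpgm stand in this order. Akr1b10, the nearest measured gene, also passed the test, at 6.22 ± 0.17 in ChREBP livers and 5.87 ± 0.16 in GFP livers, a difference of 0.35 (SE 0.09, limma, adjusted p = 0.00895), with overlapping groups. The flanking genes outside the family missed the threshold, Slc35b4 at -0.13 (adjusted p = 0.281) and Bpgm at -0.00 (adjusted p = 0.985). Whether the probes of Akr1b8 and Akr1b10 share signal with each other or with the unmeasured Akr1b genes was not tested.

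Akr7a5, a reductase of aflatoxin aldehyde and succinic semialdehyde, had the smallest p of the 3 lower members. Its lowest, median and highest log2 levels were 7.74, 7.86 and 8.06 in ChREBP livers, against 8.05, 8.15 and 8.28 in GFP livers. Only ChREBP 6, at 8.06, reached the GFP range, which began with GFP 6 at 8.05. The difference was -0.27 (SE 0.07, 95% interval -0.41 to -0.12), so GFP livers were 1.20-fold higher (7.89 ± 0.15 in ChREBP livers and 8.16 ± 0.08 in GFP livers, limma, adjusted p = 0.00916).

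Akr1c19 and Akr1c13 are NAD-dependent dehydrogenases of hydroxysteroids and xenobiotic alcohols. Akr1c19 ran between 9.18 and 9.71 (median 9.48) in ChREBP livers and between 9.55 and 9.98 (median 9.77) in GFP livers. ChREBP 2 and ChREBP 6, at 9.71 and 9.58, lay inside the GFP range and the other 4 below it. The difference was -0.29 (SE 0.09, 95% interval -0.50 to -0.09, limma, adjusted p = 0.0337). The call was lost when any 1 of 6 arrays was left out (ChREBP 1, 3 or 5, GFP 2, 3 or 4), with adjusted p of at most 0.0740.

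Akr1c13 ran between 10.72 and 10.84 (median 10.78) in ChREBP livers and between 10.78 and 11.09 (median 10.95) in GFP livers. Only GFP 6, at 10.78, and GFP 5, at 10.83, fell among the ChREBP values. The difference was -0.16 (SE 0.05, 95% interval -0.27 to -0.04, limma, adjusted p = 0.0412), and GFP livers were 1.12-fold higher. Leaving out any 1 of 9 of the 12 arrays (all but ChREBP 2, GFP 5 and GFP 6) ended the call, with adjusted p between 0.0617 and 0.0826. Akr1c19 minus Akr1c13 within an array averaged -1.30 ± 0.17 in ChREBP livers and -1.17 ± 0.12 in GFP livers, and the change of -0.14 missed the threshold (exact two-sided permutation p = 0.141, also after adjustment over 2 pairs).

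Cbr4, a subunit of the reductase of mitochondrial fatty acid synthesis, ran between 9.71 and 9.88 in ChREBP livers and between 9.65 and 9.93 in GFP livers. Its difference was 0.04 (SE 0.05), with a 95% interval of -0.07 to 0.16 (limma, adjusted p = 0.584). Akr1a1, the aldehyde reductase that turns glucuronate into gulonate on the way to ascorbate, ran between 12.12 and 12.17 in ChREBP livers and between 12.06 and 12.20 in GFP livers. Its difference was 0.03 (SE 0.04), with a 95% interval of -0.05 to 0.12 (limma, adjusted p = 0.571). For both genes the interval leaves out any change as large as that of Akr1b8, while smaller changes of either sign lie within it.

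**Figure D2:**
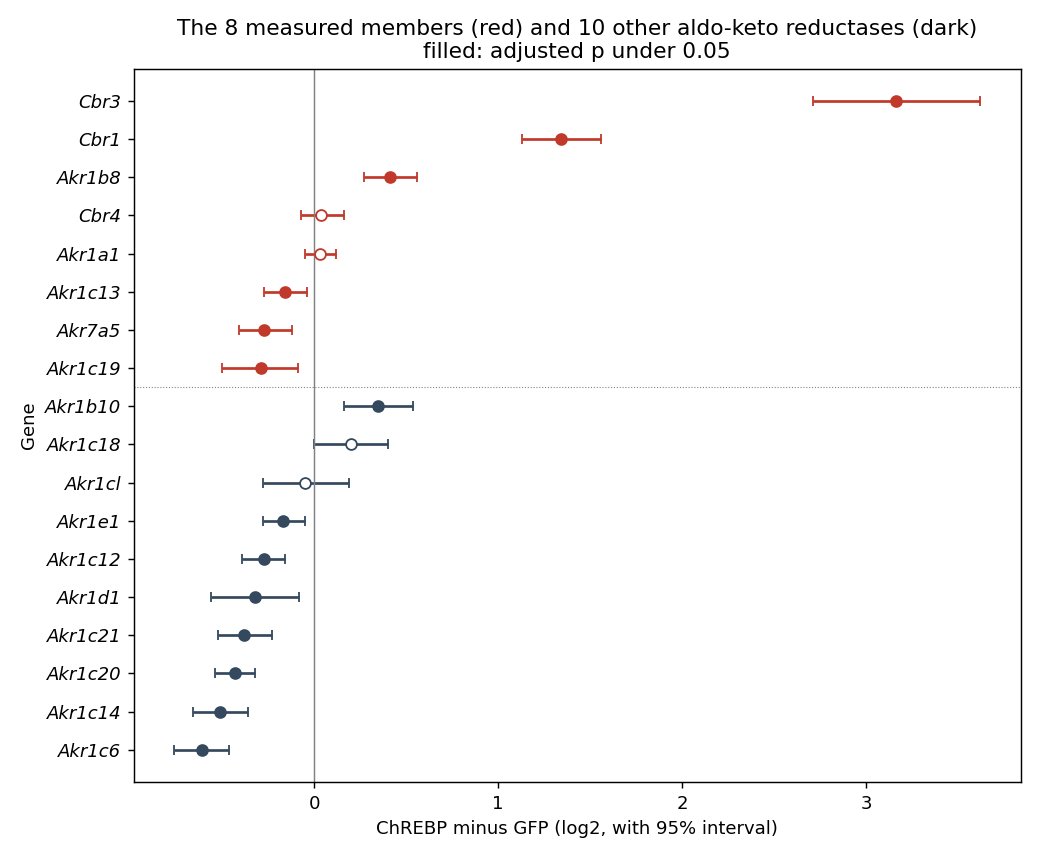
Difference in log2 level, ChREBP minus GFP (x axis), with its 95% interval for the 8 measured members and 10 other aldo-keto reductases (y axis). Cbr3 at 3.16 and Cbr1 at 1.34 stand far right, Akr1b8 and Akr1b10 lie at 0.41 and 0.35, and most of the Akr1c genes lie left of 0, down to -0.61 for Akr1c6.

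The other aldo-keto reductases measured were 10 genes, of which 1 was higher (Akr1b10), 7 were lower and 2 did not pass. Their median difference was -0.30, against -0.04 over all genes, and the share called over all genes was 13.7% lower. Akr1c6, a 17β-hydroxysteroid dehydrogenase, differed by -0.61 (SE 0.07), between 11.64 ± 0.16 in ChREBP livers and 12.25 ± 0.08 in GFP livers (limma, adjusted p = 1.77e-05). Akr1c14, a 3α-hydroxysteroid dehydrogenase, differed by -0.51 (SE 0.07), between 10.63 ± 0.15 in ChREBP livers and 11.14 ± 0.09 in GFP livers (limma, adjusted p = 8.91e-05). Akr1c20 differed by -0.43 (adjusted p = 2.93e-05) and Akr1c12 by -0.27 (adjusted p = 0.00197). For these 4 genes every ChREBP array lay below every GFP array.

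Akr1c21 was lower by 0.38 in a dim row, at 3.84 ± 0.11 in ChREBP livers and 4.22 ± 0.13 in GFP livers (limma, adjusted p = 0.000928). Akr1d1, the steroid 5β-reductase of bile acid synthesis, differed by -0.32 (adjusted p = 0.0443), and Akr1e1, a reductase of anhydrofructose, by -0.17 (adjusted p = 0.0334). The Akr1d1 call was lost without any 1 of 8 arrays (adjusted p 0.0523 to 0.0952: ChREBP 3, 4, 5 or 6, GFP 1, 2, 3 or 5), and that of Akr1e1 without any 1 of 7 (0.0521 to 0.0705: ChREBP 1, 4, 5 or 6, GFP 1, 4 or 5). Akr1c18, a 20α-hydroxysteroid dehydrogenase, had a difference of 0.20 (adjusted p = 0.125) and Akr1cl one of -0.05 (adjusted p = 0.780). Without ChREBP 6, Akr1c18 passed at 0.28 (adjusted p = 0.0164).

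The Akr1c genes and Akr1e1 form 1 run on chromosome 13, in the order Akr1c14, Akr1c18, Akr1c13, Akr1c19, Akr1c12, Akr1c6, Akr1c20, Akr1c21 and Akr1e1. Of these 9 genes, 8 were lower in ChREBP livers, by 0.16 to 0.61, and Akr1c18 did not pass. The median over the 9 was -0.29, and groups did not overlap for 4. Over all genes 13.7% were lower and 6.83% were lower with groups apart. Akr1c18 and Akr1c21 are among the dimmest 25% of genes and have no value once these are left out. The members Akr1c13 and Akr1c19 lie inside the run. Akr1c13, at -0.16, had the smallest fall of those called lower, and Akr1c19 stood at the median. Of the genes that flank the run, Ucn3 did not pass, at -0.10 (adjusted p = 0.324), and Klf6 on the other side was higher by 0.98 (adjusted p = 2.13e-06). Neighbouring Akr1c genes are alike in sequence and may share probe signal, so the division of the change among them is uncertain.

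**Figure D3:**
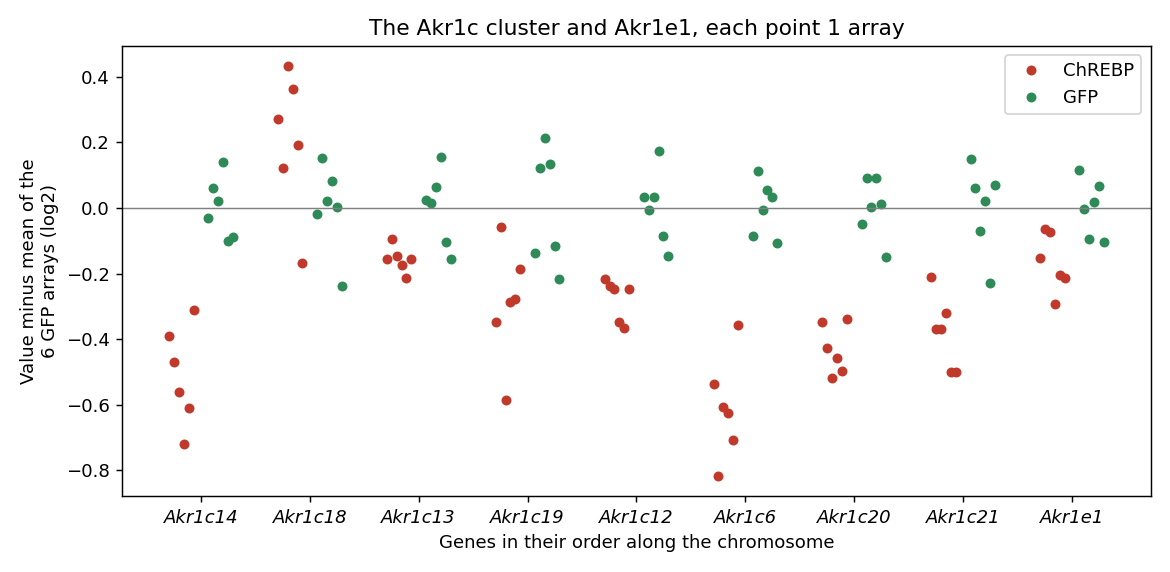
Log2 level minus the mean of the 6 GFP arrays (y axis) of 9 genes in their order along chromosome 13 (x axis, order only), 1 point per array, with ChREBP points left of GFP points. Every ChREBP point lies below every GFP point for Akr1c14, Akr1c12, Akr1c6 and Akr1c20, and the points overlap for the other 5 genes.

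Carbonyl and quinone reductases of other families were set beside the members. Of 15 genes, 3 were higher, 6 were lower and 6 did not pass, with a median difference of -0.13, where 13.3% of all genes were higher and 13.7% lower. Nqo1, a quinone reductase, was at 7.73 ± 0.30 in ChREBP livers and 5.91 ± 0.28 in GFP livers, a difference of 1.83 (SE 0.15, limma, adjusted p = 6.74e-07). Dhrs7 was higher by 0.64 (adjusted p = 4.30e-06) and Ptgr1, a reductase of prostaglandins and alkenals, by 0.61 (adjusted p = 0.0206). Without ChREBP 4 and ChREBP 5, Ptgr1 no longer passed (0.56, limma, adjusted p = 0.0675), nor did it in the methods' analysis of variance (adjusted p = 0.0523). GFP 6, at 9.66, lay above every ChREBP array, of which the highest was at 9.48.

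The lower genes of this list were led by Hsd11b1, the enzyme that regenerates active glucocorticoid, at -0.83 (adjusted p = 1.85e-06), and by the alcohol dehydrogenase Adh4 at -0.68 (adjusted p = 8.22e-06). Nqo2 followed at -0.41 (adjusted p = 2.43e-05), Adh5 at -0.23 (adjusted p = 0.000509), Rdh11 at -0.45 (adjusted p = 0.00405) and Dcxr at -0.19 (adjusted p = 0.0288). The Dcxr call was lost without any 1 of 5 arrays (ChREBP 1, 2 or 3, GFP 3 or 5), with adjusted p between 0.0502 and 0.0652. Cbr2, the remaining carbonyl reductase, had a difference of 0.25 (SE 0.80, adjusted p = 0.841). Single arrays stood high in both groups, at 10.86 in ChREBP 5 against 5.60 to 6.33 in the other 5 ChREBP livers, and at 7.72 and 7.94 in GFP 5 and GFP 6 against 5.57 to 5.92 in the other 4 GFP livers. Leaving out 1 array moved the difference to between -0.58 and 0.54.

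The 12 genes listed for Nrf2 and its core targets held 6 that were higher, 0 that were lower and 6 that did not pass, with a median of 0.31 (0 were lower at an unadjusted p under 0.05 too). Over all genes 13.3% were higher and 13.7% lower. The list holds Nqo1, which also stands among the quinone reductases. Slc7a11, the cystine transporter, was higher by 3.13 (adjusted p = 2.51e-09), Srxn1, sulfiredoxin, by 1.26 (adjusted p = 9.07e-07), Hmox1, heme oxygenase, by 0.88 (adjusted p = 2.05e-05) and Nfe2l2, which encodes Nrf2, by 0.81 (adjusted p = 1.08e-06). Ephx1, an epoxide hydrolase, was higher by 0.44 (adjusted p = 8.35e-05). The glutathione synthesis genes Gclc and Gclm, also listed there, did not pass, at -0.01 and 0.03, nor did Txnrd1 at 0.12, Gstm1 at 0.11, Osgin1 at 0.18 and Keap1 at 0.09 (all limma).

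The order of the 6 ChREBP arrays was compared across these genes as a description. Arrays 2 and 4 held the highest 2 places for Cbr3, Cbr1, Nqo1 and Srxn1, and arrays 3 and 6 the lowest 2 for the same 4 genes. Across the other genes of the Nrf2 list the order varied. Keap1, which did not pass, also had arrays 4 and 2 highest and arrays 3 and 6 lowest. Hmox1, Gclc and Txnrd1 had arrays 2 and 4 highest as well, but not both arrays 3 and 6 lowest. Hmox1 was lowest in array 1 at 8.86. Slc7a11 was highest in array 2 at 7.96 and next in array 6 at 7.87, and lowest in array 5 at 7.22. Nfe2l2 was highest in array 3 at 11.05. Mlxipl was highest in array 3 at 10.96, followed by arrays 2 and 4 at 10.94 and 10.93, and lowest in array 5 at 10.74. Akr1b8 was highest in array 3 and lowest in array 6.

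**Figure D4:**
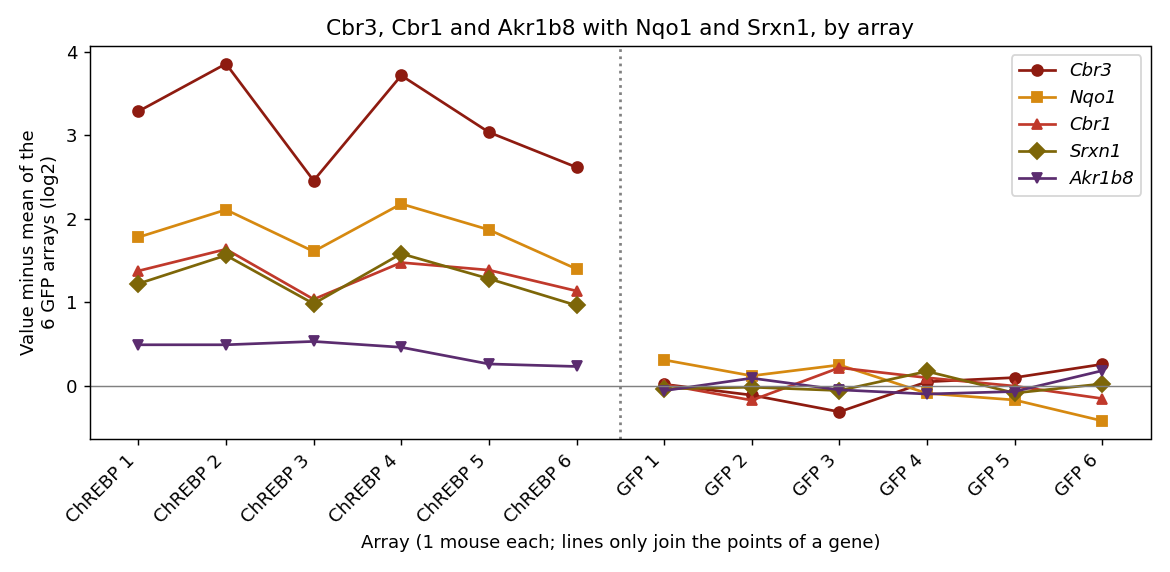
Log2 level minus the mean of the 6 GFP arrays (y axis) of Cbr3, Nqo1, Cbr1, Srxn1 and Akr1b8 in each of the 6 ChREBP and 6 GFP livers (x axis), with 1 line per gene that only joins its points. Among ChREBP arrays, numbers 2 and 4 are highest for Cbr3, Cbr1, Nqo1 and Srxn1, whereas Akr1b8 is highest in number 3.

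The profile over the 12 arrays most like that of Cbr3, by root-mean-square distance between mean-centred log2 values among 18049 protein-coding genes, belonged to Slc7a11 at a distance of 0.31. Morc4 followed at 0.35, Lcn2, lipocalin 2, at 0.38, Ly6d at 0.38 and Cidea, a lipid droplet protein, at 0.42, against a median distance of 1.65. This distance includes the difference between the groups, so it is small mainly for genes whose difference is close to that of Cbr3. The 5 genes differed by 2.66 to 3.47. Likeness of arrays within a group was not measured apart from this. For Akr1c19, the member with the largest fall, the nearest profiles were Olfr417 at 0.10, Syt3, Zbtb40 and Cmc1 at 0.11 and Olfr19 at 0.12. There 186 genes lay within 0.15 and the median distance was 0.24, so the nearest genes hardly stand out from the rest.

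Routes that supply or share the substrates of the members were read from short lists, again beside 13.3% of all genes higher and 13.7% lower. In the polyol and fructose route, in which Akr1b3 makes sorbitol from glucose, the 3 genes measured were higher. Khk, ketohexokinase, differed by 0.41 (adjusted p = 8.67e-06), Slc2a5, the fructose transporter, by 0.39 (adjusted p = 0.00441) and Tkfc by 0.20 (adjusted p = 0.0442). The Tkfc call was lost without any 1 of 11 of the 12 arrays (all but ChREBP 5), with adjusted p between 0.0533 and 0.0852.

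In the ascorbate route, to which Akr1a1 belongs, 0 of 5 genes were higher, also at an unadjusted p under 0.05, and 2 were lower (limma). Gulo, which makes the last step to ascorbate, differed by -0.59 (adjusted p = 0.000102) and Rgn, the lactonase before it, by -0.54 (adjusted p = 8.99e-05). The upstream genes Ugp2 and Ugdh, at 0.06 and 0.13, and Miox, at -0.06, did not pass. Akr1a1 thus differed by 0.03 in livers in which the 2 later genes of the route were lower.

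Of 8 genes of methylglyoxal and aldehyde clearance, 1 was higher and 3 were lower (13.3% and 13.7% of all genes). Aldh3a2, a fatty aldehyde dehydrogenase, differed by 0.60 (adjusted p = 1.79e-05). Glo1 and Hagh, the pair that detoxifies methylglyoxal, differed by -0.37 (adjusted p = 8.41e-05) and -0.68 (adjusted p = 8.93e-08), and Aldh9a1 by -0.31 (adjusted p = 0.000951). Of the 5 measured genes that supply NADPH, the cofactor of most members, Pgd was higher by 1.78 (adjusted p = 1.86e-09) and Me1, malic enzyme, by 1.11 (adjusted p = 2.40e-08). H6pd, at -0.55 (adjusted p = 0.000173), and Idh1, at -0.23 (adjusted p = 0.000443), were lower, and Nnt, at -0.15, did not pass (adjusted p = 0.0575). G6pdx was not analysed here.

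Markers of other cells also differed between the groups. Over all genes 13.3% were higher and 13.7% lower. The mean log2 level of 5 T and NK cell markers ran between 6.82 and 7.51 in ChREBP livers and between 5.80 and 6.49 in GFP livers, and all 5 genes were higher. Of 6 macrophage markers 2 were higher and 4 lower (mean 8.26 to 8.58 in ChREBP livers and 8.37 to 8.76 in GFP livers). Timd4 differed by -1.59, Clec4f by -0.41, Marco by -0.35 and Vsig4 by -0.21. Cd68 differed by 0.74 and Adgre1 by 0.63, so the mean hides changes of opposite sign. The 4 measured hepatocyte markers averaged 12.82 to 12.94 in ChREBP livers and 13.00 to 13.12 in GFP livers, with 3 of 4 lower. As for macrophages, mean levels of the other lists overlapped between ChREBP and GFP livers. They were 6.50 to 7.34 and 6.29 to 6.90 for 4 cholangiocyte markers. For 5 stellate cell markers they were 7.07 to 7.61 and 6.84 to 7.72. For 5 endothelial markers they were 8.03 to 8.65 and 8.23 to 8.43. For 4 adipocyte markers they were 5.49 to 6.73 and 5.53 to 6.69. Within these other lists, Epcam (cholangiocyte) was higher by 0.52, Lyve1 (endothelial) by 0.57 and Pdgfrb (stellate) by 0.25. Reln (stellate) was lower by 0.36 and Plin1 (adipocyte) by 0.22 (all limma, adjusted p under 0.05). The rest of their markers did not pass. The part of these cells in the members' differences was not tested.

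Pancreatic acinar markers, 5 of 6 measured, averaged 5.69 to 12.13 in ChREBP livers and 5.80 to 6.02 in GFP livers. The highest values were in ChREBP 4 and ChREBP 5. ChREBP 2 also lay above every GFP array for each measured marker, with Ctrb1 at 8.74 against at most 6.90. ChREBP 6 did so for each but Cela1. Without ChREBP 4 and ChREBP 5, Cbr3 differed by 3.06, Cbr1 by 1.30, Akr1b8 by 0.44 and Akr7a5 by -0.25. All 4 passed (limma, adjusted p between 1.49e-06 and 0.0291), with ChREBP 2 and ChREBP 6 still included. Akr1c13 and Akr1c19 then did not pass, at -0.14 (adjusted p = 0.123) and -0.30 (adjusted p = 0.0727).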

How the data were processed

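Whole livers of 6 ChREBP and 6 GFP mice were compared, 1 array each. The deposited values are log2 signals that the authors made from the arrays with RMA and Partek, per the submitters' processing notes (no versions stated). RMA subtracts background, equalises array distributions and combines the probes of each transcript, so that differences are relative to the bulk of genes. The array methods of the study describe another overexpression experiment, whose analysis of variance served as a guide to the test. Scan dates and probe intensities were not used, so neither an array batch nor detection was tested. The dose in the labels is garbled and is not given here. The number of arrays limits the precision.

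Of 35556 rows, 21789 carry 1 gene symbol, 1621 carry several and 12146 are not listed. Symbols were updated by Entrez ID (21698 matched) through the RefSeq gene table (GRCm38.p6), from which only names and gene order were taken. Where a gene had several rows the brightest over 12 arrays was kept, giving 19938 genes, with no filter on dim rows. Differences are ChREBP minus GFP on the log2 scale, tested two-sided and without covariates by limma (lmFit, eBayes; version 3.58.1 under R 4.3.3) and Benjamini-Hochberg adjustment over 19938 genes, called at an adjusted p under 0.05. Fold changes and 95% intervals come from the same fit, which was tested on simulated data. Within-array differences of gene pairs were tested by exact permutation over 924 assignments. Of 5 such pairs planned, 3 involve Akr1b3 or Akr1b7 and were not analysed here. Replicate numbers of the 2 groups were not taken to pair the arrays. Alternatives are given at the end.

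The members and gene lists were chosen with earlier results of these data known. Named were Mlxipl, the members, up to 6 called genes with the smallest p per list (all where a count was 5 or fewer), and the 5 nearest profiles of the members that rose and fell most. Other genes of the lists and the flanking genes were named after their values had been seen. Promoter windows are RefSeq's, from 250 bases before to 50 after a start.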

Additional observations from a re-analysis of the deposited data

Results flagged for a closer look

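A single array stood apart from the other 5 of its group in 7 of the 146 groups examined (73 genes in both groups), which is 4.79%, where chance gives about 1 in 20. None of the 7 was a measured member. Among other aldo-keto reductases, Akr1cl was at 4.64 in GFP 4 and between 4.37 and 4.45 in the other GFP livers. Among carbonyl and quinone reductases, Cbr2 was at 10.86 in ChREBP 5 and between 5.60 and 6.33 in the other ChREBP livers, Ptgr1 was at 9.66 in GFP 6 against 8.36 to 8.63 in the other GFP livers, and Nqo2 was at 9.30 in GFP 6 against 9.48 to 9.53. Aldh1b1 was at 8.70 in ChREBP 5 and between 8.95 and 9.08 in the other ChREBP livers, and Cyp2b10 was at 9.79 in ChREBP 5 and between 8.68 and 9.08 in the others. Txnrd1 was at 8.97 in GFP 2 and between 9.20 and 9.32 in the other GFP livers.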

How the results depend on the processing

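The comparison was repeated under 24 alternatives, including other scalings, a filter on the dimmest 25% of genes, every row tested, array weights, the methods' analysis of variance, a replicate block and the omission of arrays. The 3 members called higher numbered 3 in all 24. The number called lower was 1, in place of 3, with every row tested, with the replicate block and without ChREBP 4 and 5 together, and 1 to 3 when 1 array at a time was left out (1 without ChREBP 1, 3 or 5 or GFP 2, 3 or 4). The other aldo-keto reductases called higher were 2, in place of 1, without GFP 6 and ChREBP 6 together, and 1 to 2 when 1 array was left out. Beyond single arrays, Akr1c13 lost its call after quantile scaling (adjusted p = 0.0774), with every row tested (0.0589) and with array weights (0.0523), and Akr1c19 with every row tested (0.0575) and in the analysis of variance (0.0630). Over 1748 repeated values of 73 genes, 70 lost and 18 gained a call, and no gene that had passed changed direction.

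Of the 6 numbers shared by the groups, only number 6 gave arrays that deviated together (correlation 0.254), while the other 5 lay between -0.061 and 0.097, so the numbers were not taken to pair the arrays. With the replicate block, Akr1c13 and Akr1c19 lost their calls (adjusted p = 0.0759 and 0.0637), Cbr3 kept 3.16 and Cbr1 1.34, 1 member was lower, and 4439 genes passed in place of 5375. After quantile scaling 2489 genes were higher and 3117 lower, and under median centring 2364 were higher and 3196 lower, in place of 2645 and 2730.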

Other observations

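Genes of the nuclear receptors that act on steroid and bile acid metabolism, and their P450 targets, were read beside the reductases. Of 7 genes, 1 was higher in ChREBP livers, Cyp2b10, by 2.01 (limma, adjusted p = 4.70e-06), and 1 was lower, Rxra, by 0.40 (adjusted p = 0.000493). The other 5 did not pass. Over all genes 13.3% were higher and 13.7% lower.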
